A study of Mus musculus with 4 samples.

Results

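The genes described here encode surface proteins of 2 families: the Ly6 genes *Ly6a*, *Ly6e*, *Ly6c1* and *Ly6c2* and the Ms4a genes *Ms4a4b*, *Ms4a4c*, *Ms4a6b* and *Ms4a6c*. They are 8 of the 27998 genes listed in the counts, found by their symbols, and were chosen by family and with earlier measured values of the same libraries in view, so that their levels and genotype differences are a description and no independent evidence. The cells were splenocytes of 2 mixed bone marrow chimeras, in which sublethally irradiated *Rag1-/-* hosts, which make no mature T or B cells but keep their own myeloid and NK cells, had received both WT (CD45.1, B6.SJL) and *Bcl3-/-* (CD45.2) marrow. On day 8 after infection with LCMV Armstrong, a virus that causes an acute infection, CD8+ T cells that bound a tetramer carrying the viral peptide GP33 were sorted by CD45 allele, giving 4 libraries (n = 2 per genotype). Chimera 1 gave the libraries WT1 and KO1, and chimera 2 gave WT2 and KO2. Both genotypes of a chimera shared host, infection and spleen. All mice had a C57BL/6 background. Every cell of the *Bcl3-/-* donor carries the deletion, and the *Bcl3* genotype and the CD45 congenic interval cannot be told apart. The ages of the mice were not given in the sources used here. Each genotype was measured in 2 animals, and p-values rest on the spread between these 4 libraries, estimated in part over all genes tested.

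Ly6 proteins are small folded domains held in the outer membrane leaflet by a glycosylphosphatidylinositol (GPI) anchor. *Ly6a* is Sca-1, an antigen of activated lymphocytes and of blood stem cells; *Ly6c1* and *Ly6c2* encode the Ly-6C antigens, used to mark monocytes, plasma cells and antigen-experienced CD8+ T cells. Ms4a proteins span the membrane several times, as the B cell antigen CD20 (*Ms4a1*) does, and *Ms4a4b* is a T cell protein of this family. Several genes of both families are known to be induced by interferons, which the infected spleen makes. Bcl-3, the protein lost in the *Bcl3-/-* cells, is an atypical IκB protein that binds the NF-κB subunits p50 and p52 in the nucleus.

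Each family lies in 1 cluster of neighbouring genes. On GRCm38, *Ly6e* (plus strand) covers chr15:74955051-74959905, *Ly6a* (minus strand) chr15:74994877-74998031, *Ly6c1* (minus) chr15:75044018-75048830 and *Ly6c2* (minus) chr15:75108158-75111970. The Ms4a genes are all on the plus strand, *Ms4a4c* at chr19:11404770-11427246, *Ms4a4b* at chr19:11443553-11467055, *Ms4a6c* at chr19:11469366-11482192 and *Ms4a6b* at chr19:11516512-11531256. Because the assay reads the 3′ ends, reads of copies that resemble each other there may not be told apart. Whether such reads were lost or counted for the other copy was not tested. Of the 98-base words in the last 400 bases of their annotated transcripts, 11.1% of those of *Ly6c1* also occurred in *Ly6c2*, 14.9% of those of *Ly6c2* in *Ly6c1*, and 2.64% of those of *Ms4a4c* in *Ms4a4b*. No word from the last 400 bases of *Ly6a*, *Ly6e*, *Ms4a4b*, *Ms4a6b* or *Ms4a6c* occurred in another member's transcripts, a count made in that direction only. Levels of *Ly6c1*, which had few UMIs beside a neighbour with many, are therefore uncertain.

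The Ms4a members form 2 pairs with alike promoters and unlike patterns over the cell classes, which is why their 250 bases before the RefSeq start site (GRCm38.p6) are shown. Windows were found for 6 of the 8 members (8 windows), and *Ly6a* and *Ly6e* are named only. The capitals mark a κB-like match, GGG and CC parted by any 5 bases on either strand:
Ms4a4b: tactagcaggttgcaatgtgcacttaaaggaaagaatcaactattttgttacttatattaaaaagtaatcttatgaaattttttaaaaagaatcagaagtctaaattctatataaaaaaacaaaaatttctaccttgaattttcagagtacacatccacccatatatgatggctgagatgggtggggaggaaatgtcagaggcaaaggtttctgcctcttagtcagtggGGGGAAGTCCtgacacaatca
Ms4a4c: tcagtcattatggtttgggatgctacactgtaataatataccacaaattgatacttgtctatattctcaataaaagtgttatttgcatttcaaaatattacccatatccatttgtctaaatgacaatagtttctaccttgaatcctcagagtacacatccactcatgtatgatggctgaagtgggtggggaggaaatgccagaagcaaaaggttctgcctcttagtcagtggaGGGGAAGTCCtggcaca
Ms4a6b: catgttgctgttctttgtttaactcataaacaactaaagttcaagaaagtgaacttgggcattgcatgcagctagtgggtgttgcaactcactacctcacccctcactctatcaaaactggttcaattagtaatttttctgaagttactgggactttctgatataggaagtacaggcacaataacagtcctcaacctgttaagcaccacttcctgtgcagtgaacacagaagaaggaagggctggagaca
Ms4a6c: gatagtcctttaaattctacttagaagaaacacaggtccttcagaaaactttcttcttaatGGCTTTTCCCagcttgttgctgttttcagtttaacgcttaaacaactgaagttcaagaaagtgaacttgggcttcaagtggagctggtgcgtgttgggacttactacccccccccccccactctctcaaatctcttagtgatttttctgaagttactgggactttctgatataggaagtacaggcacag
Aligned, the *Ms4a4b* and *Ms4a4c* windows were identical at 80.1% of 231 bases, those of *Ms4a6b* and *Ms4a6c* at 85.1% of 175 bases, and those of *Ly6c1* and *Ly6c2* at 75.9% of 216 bases. Across the pairs, the *Ms4a4b* and *Ms4a6b* windows were identical at 61.7% of 209 bases. Bases set against a gap are left out of these shares, so the shares of different pairs cover different lengths. In *Ms4a4b* (chr19:11443308-11443557) and *Ms4a4c* (chr19:11407411-11407660) the same 10 letters stood at -21 to -12 and at -17 to -8 from the start site. The window of *Ms4a6c* (chr19:11469118-11469367) held a match at -189 to -180 on the other strand, and that of *Ms4a6b* (chr19:11518309-11518558) held none. Of the windows not shown, those of *Ly6c1* each held κB-like matches and those of *Ly6c2* held none. A κB-like match is common: 45.8% of 32851 RefSeq windows of this length held one. The interferon-stimulated response element (GAAA and GAAA parted by any pair of bases), held by 2.98% of all windows, and the gamma-activated site TTCNNNGAA, held by 7.02%, were in none of the 8 windows of members, which says only that these letters are not in these 250 bases. Both motifs were sought on both strands, and a κB-like match is 10 bases that can overlap either of them.

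The libraries held 21193300 UMIs (WT1), 20358780 (WT2), 22922219 (KO1) and 22672343 (KO2). Cells were kept from 500 genes upward and up to 10% mitochondrial UMIs, 4941, 8092, 5366 and 6494 of them in this order and 24893 in all. Cells of WT2 were the shallowest, with a median of 2019 UMIs against 3571 (WT1), 3620.5 (KO1) and 2948 (KO2). Libraries shared between 37 and 63 cell barcodes, against 36.0 to 71.3 expected for independent draws. Clusters, found in each library without the members and their relatives among the variable genes, were grouped into T cell classes (23334 cells) and other cells by lists of marker genes. Cells called terminal effector-like were led by *S1pr5*, *Gzma*, *Klrg1*, *Zeb2* and *Cx3cr1* (KO1 had 2 such clusters), MPEC-gene cells by *Tcf7*, *Ccr7*, *Id3* and *Dapl1*, of which most are also genes of naive T cells, and cycling and interferon-stimulated cells by genes of those programs. Clusters that took no list's name were pooled as no-list T cells, the most frequent class, with 2487 (WT1), 4667 (WT2), 2796 (KO1) and 3783 (KO2) cells. This class is mixed: cluster 2 of KO1 (736 cells) had *Tcf7*, *Il7r*, *Slamf6* and *Bcl2*, 4 genes of the MPEC list, among its 10 leading genes with fewer than 3 of the list at 2-fold, *Tcf7* was a leading gene of cluster 0 of KO2 (1433 cells), and *Il7r* and *Bcl2* were leading genes of cluster 3 of WT1 (636 cells). *Tcf7* stood at 39.3 (WT1), 26.4 (WT2), 57.9 (KO1) and 51.6 (KO2) CPM (UMIs per 1000000 UMIs of the summed cells) in no-list cells, higher in both *Bcl3-/-* libraries, and the part of this in comparisons with no-list cells was not tested. The monocyte/macrophage-like clusters had as many B cell as myeloid list genes among their 10 leading genes in KO1 and KO2, so that their levels are not compared between genotypes.

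*Bcl3* itself did not separate the libraries by label. *Bcl3* had 33.2 (WT1), 107.7 (WT2), 27.6 (KO1) and 86.6 (KO2) CPM. It was lower in the *Bcl3-/-* library of each chimera (log2 fold change -0.33, SE 0.58, adjusted p = 0.837; with chimera as a block -0.31, adjusted p = 0.0201), and chimera 2 was above chimera 1 in both genotypes. The deleted part of the gene is not given in the sources used here, and 3′ UMIs from outside that part check no genotype. *Cd3e*, a T cell receptor gene, was itself called higher in the *Bcl3-/-* libraries (477, 405, 798 and 913 CPM, adjusted p = 0.0408). The directions below are therefore those between the libraries labelled WT and *Bcl3-/-*.

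*Ly6a* and *Ms4a4c* were the members lower in both *Bcl3-/-* libraries by a clear margin. Summed over all cells, *Ly6a* had 1297 CPM (WT1), 1465 (WT2), 921 (KO1) and 972 (KO2). The genotypes did not overlap, but the fit without the chimera did not call the difference (log2 fold change -0.56, SE 0.11, adjusted p = 0.117), and the fit with the chimera as a block did (adjusted p = 0.000318). *Ms4a4c* had 86.7 CPM (WT1), 92.1 (WT2), 58.7 (KO1) and 59.7 (KO2). Both *Bcl3-/-* libraries lay well below both WT libraries, and *Ms4a4c* was called lower (log2 fold change -0.61, SE 0.08, adjusted p = 0.0408), as it was with the block (adjusted p = 0.000135). *Ms4a4c* missed the threshold without WT2 (adjusted p = 0.0902) and without KO2 (adjusted p = 0.127). In each fit that leaves out a library, the 1 library left of its genotype is assumed to vary like the other genotype, which alone gives the spread.

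The other members were not called. *Ly6e* had 1398 CPM (WT1), 1468 (WT2), 1265 (KO1) and 1387 (KO2), a log2 fold change of -0.13 (SE 0.11, adjusted p = 0.620). *Ms4a6b* had 1555, 1653, 1438 and 1480 CPM in the same order (-0.15, SE 0.11, adjusted p = 0.568), and *Ms4a6c* 41.5, 47.2, 35.9 and 38.2 CPM (-0.27, SE 0.09, adjusted p = 0.235). In these 3 genes the *Bcl3-/-* libraries were lower without overlap, by less than in *Ly6a* and *Ms4a4c*. *Ly6c2* had 4103, 3602, 3902 and 3747 CPM (-0.03, SE 0.15, adjusted p = 0.956), *Ms4a4b* 3863, 4331, 3536 and 4438 CPM (-0.06, SE 0.15, adjusted p = 0.887), and *Ly6c1* 5.45, 2.71, 4.997 and 4.69 CPM (0.22, SE 0.33, adjusted p = 0.796). In these the genotypes overlapped, and *Ms4a4b* was higher in chimera 2 in both genotypes. With the UMIs of *Ly6c1* and *Ly6c2* added together the log2 fold change was -0.03 (adjusted p = 0.957).

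Of the 8 members, 1 was called lower over all cells and none higher, where 0.0778% of 11566 genes tested were called lower; with the block it was 2 members, where 4.84% of all genes were called lower. Without overlap, 5 members were lower, as were 18.8% of all genes. The median log2 fold change was -0.14 over the members and 0.01 over all genes tested. Since the members were selected on values of these libraries, nothing is read from these shares.

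**Figure D1:**
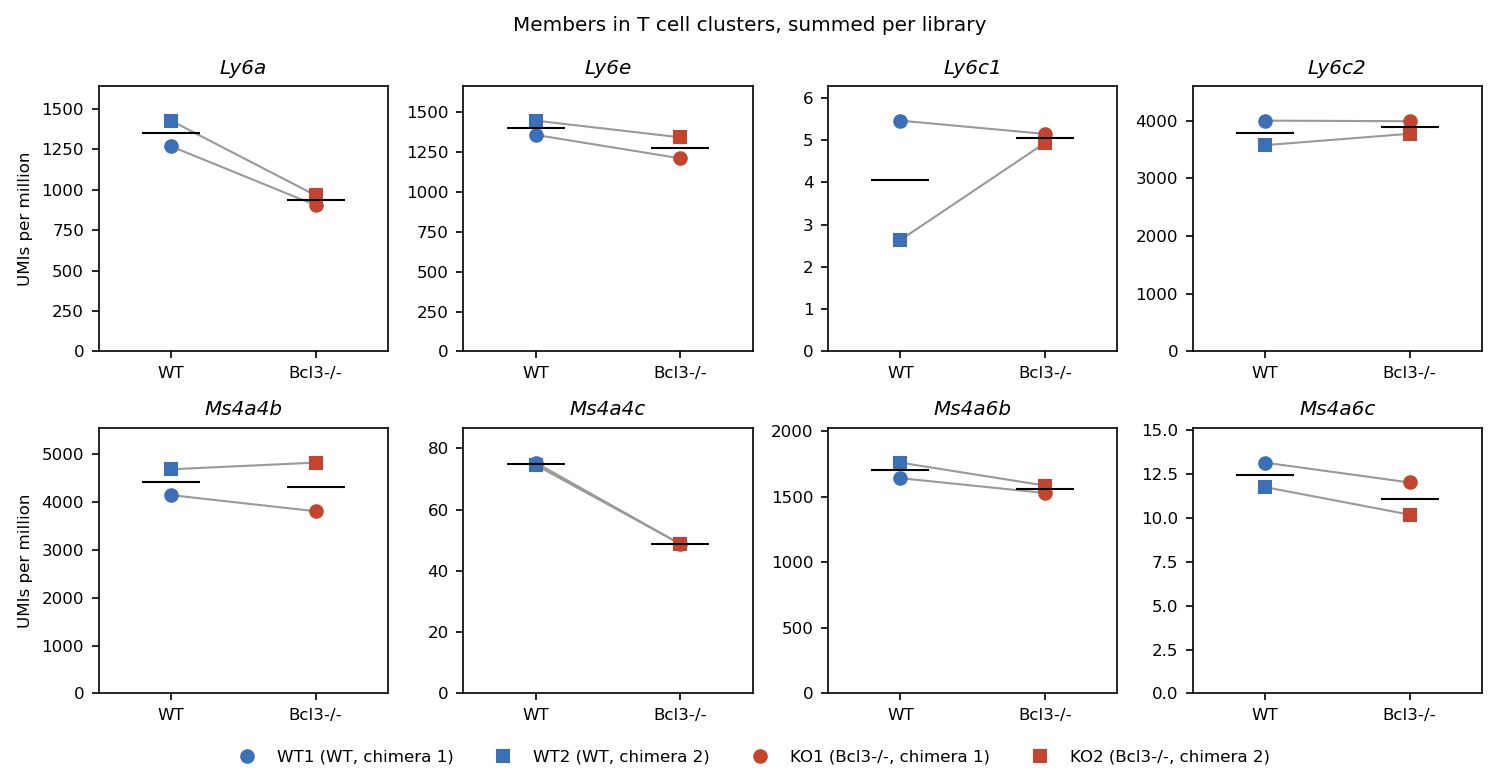
CPM (y axis, linear, from 0) of each member in the summed T cell clusters, by genotype (x axis). Points are libraries (circles chimera 1, squares chimera 2), grey lines join libraries of a chimera and black lines are means of 2 libraries. Ly6a and Ms4a4c fall along both lines, Ms4a4c from 75.3 and 74.6 to 48.7 and 48.8.

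Within the T cell clusters alone the differences of *Ly6a* and *Ms4a4c* were of nearly the same size. *Ly6a* had 1269 (WT1), 1428 (WT2), 904 (KO1) and 965 (KO2) CPM there (log2 fold change -0.54, SE 0.11, adjusted p = 0.137; with the block 5.28e-08). *Ms4a4c* had 75.3 (WT1), 74.6 (WT2), 48.7 (KO1) and 48.8 (KO2) CPM, close together within a genotype (-0.63, SE 0.09, adjusted p = 0.0556; with the block 9.97e-09). None of the 8 members was called without the block, where 0.0541% of 11100 genes were called lower (1532 genes had an unadjusted p below 0.05 and 30 were called in either direction; DESeq2 called 2 of the members). With the block the 2 were called lower, as were 6.81% of all genes. For *Ms4a4c* the smaller adjusted p with the block came with no smaller SE (0.080 here, 0.073 over all cells). It is not read as stronger evidence. Without overlap, 4 members were lower (*Ly6a*, *Ly6e*, *Ms4a4c* and *Ms4a6b*), as were 19.1% of all genes. In summed counts, fewer cells that transcribe a gene and less RNA per cell cannot be told apart.

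Markers of other cells and of T cell states also moved with genotype. In the T cell clusters the 14 neutrophil list genes summed to 580 (WT1), 196 (WT2), 603 (KO1) and 410 (KO2) CPM, with *S100a8* the most abundant, none at 0, and 6 of 14 higher with the block. The 16 monocyte and macrophage list genes summed to 846, 857, 815 and 813 CPM, with *Ccr2*, also a T cell gene, the most abundant, *Vcan* at 0 in WT2, and 6 of 13 tested lower and 1 higher with the block. The 30 measured of 32 interferon-stimulated list genes summed to 2519, 3541, 2028 and 2593 CPM in the T cell clusters, with *Ifi27l2a* the most abundant and none at 0; 15 of 30 were lower and none higher with the block, and none was called without it, nor any of the neutrophil, monocyte and macrophage lists. The 16 cycling list genes summed to 1725 (WT1), 1584 (WT2), 1039 (KO1) and 1038 (KO2) CPM, with *Hist1h2ap* the most abundant and none at 0. With the block 13 of 16 were lower and none higher. The 7 MPEC list genes summed to 369, 347, 324 and 315 CPM in the same order, and with the block 4 of 7 were lower and none higher. Neither list held a call without the block. The part of all these lists in the member differences was not tested.

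The relatives of the members and the genes that build the GPI anchor held no call over all cells without the block. Of 30 listed Ly6 relatives 8 were tested, with a median log2 fold change of 0.33; with the block *Ly6d*, a B cell gene (47.1, 36.6, 62.4 and 48.7 CPM in WT1, WT2, KO1 and KO2), *Ly6g*, a neutrophil antigen (2.67, 1.82, 4.63 and 5.11 CPM), and *Plaur*, the urokinase receptor, were higher and *Ly6k* was lower. Over all cells the neutrophil list summed to 1671, 1105, 2879 and 3264 CPM in the same order, and its part in the change of *Ly6g* was not tested. Of 15 Ms4a relatives 7 were tested, with a median of -0.20; *Ms4a6d* was lower with the block (68.3, 67.6, 57.9 and 55.0 CPM, adjusted p = 0.0283), and *Ms4a1*, CD20, was not called (21.2, 26.2, 27.4 and 26.3 CPM). The second most abundant Ly6 relative, *Ly6i*, was not called (24.2, 38.1, 24.9 and 23.3 CPM). Of 28 genes of GPI anchor assembly and transfer 26 were tested, 13 with a negative and 13 with a positive fold change and a median of -0.01. The most abundant, *Dpm3*, of the enzyme that makes the mannose donor (222.7, 212.0, 207.6 and 169.9 CPM), and *Pigx*, of the first mannose transfer (83.0, 84.6, 78.4 and 88.2 CPM), were not called. With the block, *Dpm1*, the catalytic subunit of that enzyme (23.2, 24.0, 32.4 and 36.1 CPM, adjusted p = 0.00314), and *Pgap2*, which remodels the anchor's lipid, were higher. In the T cell clusters, *Dpm3* was lower with the block (222.9, 212.4, 209.3 and 171.5 CPM, adjusted p = 0.0419).

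Across T cell classes the members differed in which class held most. In interferon-stimulated cells, *Ly6a* had 2042 CPM ± 320 (SD, n = 4 libraries), against 1126 ± 229 in no-list cells, 1163 ± 232 in cycling cells, 999 ± 135 in MPEC-gene cells and 822 ± 333 in terminal effector-like cells. Only the interferon-stimulated class stood clear of the others, whose ranges overlapped one after the next. *Ly6e* had 1769 ± 74.4 CPM in interferon-stimulated, 1535 ± 70.8 in cycling, 1460 ± 106 in MPEC-gene, 1355 ± 71.2 in no-list and 817 ± 279 CPM in terminal effector-like cells. Its interferon-stimulated level again stood clear and its terminal effector-like level was the lowest in each of the 4 libraries. No test goes with these levels, since the clusters were found from the same cells.

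*Ly6c2* divided the classes in another way. It had 4653 ± 128 CPM in interferon-stimulated, 4092 ± 406 in terminal effector-like, 4031 ± 268 in no-list, 3279 ± 277 in cycling and 2045 ± 119 CPM in MPEC-gene cells (SD, n = 4). MPEC-gene cells lay below terminal effector-like cells in 4 of 4 libraries, by -0.997 ± 0.14 on the log2 scale. *Ly6c1*, with a mean of 21.0 CPM ± 14.9 in MPEC-gene cells and 3.04 to 5.16 CPM in the other T cell classes, had its highest mean of the T cell classes where *Ly6c2* had its lowest. The *Bcl3-/-* libraries carried that mean, with 33.1 (KO1) and 33.5 (KO2) CPM against 14.2 (WT1) and 3.32 (WT2), and in WT2, with 3 UMIs, MPEC-gene cells did not stand above interferon-stimulated cells (3.35 CPM).

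The Ms4a members also parted. *Ms4a4b* had 5497 ± 735 CPM in interferon-stimulated, 4622 ± 432 in no-list, 4436 ± 599 in terminal effector-like, 3449 ± 649 in MPEC-gene and 3449 ± 435 CPM in cycling cells, neighbours in this order overlapping. *Ms4a6b*, a close relative, had 2074 ± 143 CPM in interferon-stimulated, 1760 ± 89.6 in no-list, 1508 ± 245 in terminal effector-like, 1377 ± 87.2 in MPEC-gene and 1275 ± 103 CPM in cycling cells. Both were lower in cycling than in no-list cells of 4 of 4 libraries, by -0.43 ± 0.05 (*Ms4a4b*) and -0.47 ± 0.07 (*Ms4a6b*) on the log2 scale. *Ms4a4c* was high in 2 classes, with 122 ± 22.7 CPM in MPEC-gene and 120 ± 42.2 in interferon-stimulated cells against 59.4 ± 12.04 in no-list, 50.1 ± 9.74 in cycling and 44.0 ± 15.8 CPM in terminal effector-like cells. The MPEC-gene minus terminal effector-like difference of *Ms4a4c* was 1.501 ± 0.34 on the log2 scale and positive in 4 of 4 libraries. *Ms4a6c* had class means between 10.6 and 13.7 CPM over the 4 libraries in T cells, with single libraries from 8.27 (KO1, MPEC-gene) to 23.0 CPM (WT1, MPEC-gene), and the ranges of the classes overlapped.

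**Figure D2:**
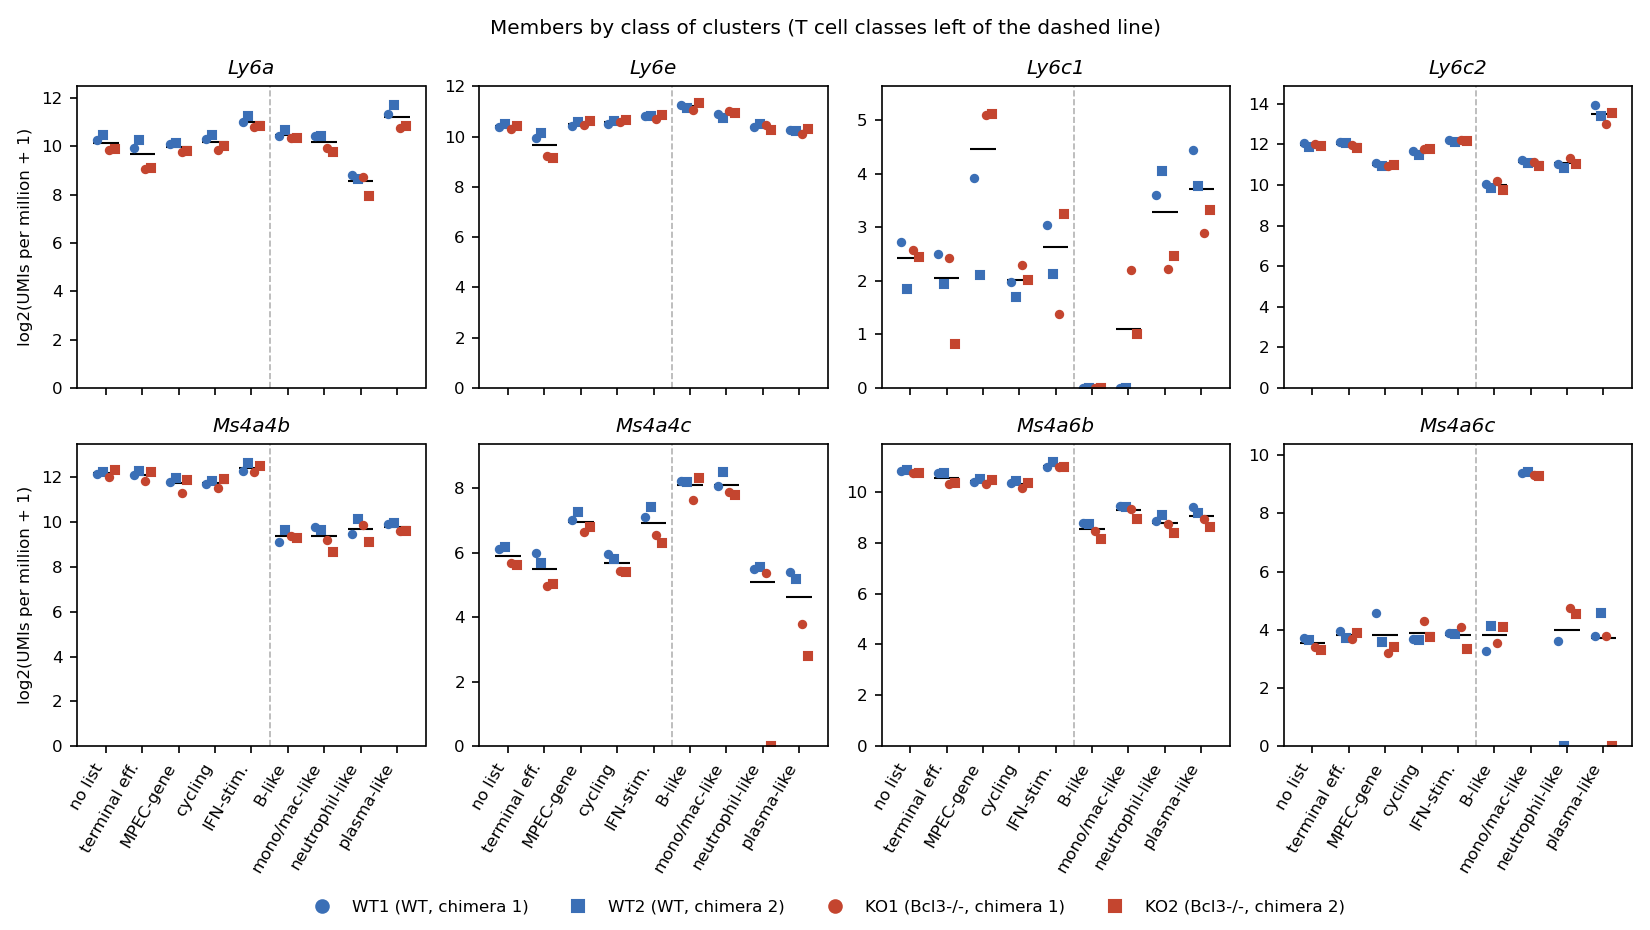
Level of each member, log2(CPM + 1), in 9 classes of clusters. Points are libraries (blue WT, red Bcl3-/-, circles chimera 1, squares chimera 2), black lines are the means of the 4 libraries' CPM on that scale, and T cell classes stand left of the dashed line. Ms4a6c stands clear in monocyte/macrophage-like cells, and Ly6c2 in plasma-like cells.

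The relation to interferon genes was also seen cell by cell. T cells thinned to 1000 UMIs were split by their UMIs of the interferon-stimulated list, which holds no member. From cells with 0 to 1 to cells with 8 or more such UMIs, the mean of *Ly6a* rose from 1.12 to 2.16 UMIs per 1000 (WT1), from 1.203 to 2.31 (WT2), from 0.783 to 2.195 (KO1) and from 0.795 to 1.95 (KO2). Among cells with 0 to 1 the *Bcl3-/-* libraries lay below the WT libraries, and among cells with 8 or more the genotypes overlapped. *Ms4a4c* behaved alike, from 0.0587 to 0.127 (WT1), 0.0535 to 0.129 (WT2), 0.0428 to 0.154 (KO1) and 0.0402 to 0.126 (KO2) UMIs per 1000, with overlap of the genotypes only at the top. The groups of cells with 8 or more held 173 (WT1), 658 (WT2), 123 (KO1) and 254 (KO2) cells, and the narrowing between genotypes was not tested. There the means of *Ms4a4c* had standard errors over cells of 0.027 (WT1), 0.016 (WT2), 0.035 (KO1) and 0.033 (KO2). In the interferon-stimulated class, by contrast, *Ms4a4c* was lower in *Bcl3-/-* libraries without overlap. It had 138 (WT1), 171 (WT2), 92.8 (KO1) and 78.6 (KO2) CPM there. The fold from the lowest to the highest group ranged over libraries from 1.92 to 2.80 for *Ly6a*, 2.166 to 3.61 for *Ms4a4c*, 1.30 to 1.87 for *Ly6e*, 1.29 to 1.48 for *Ms4a6b*, 1.27 to 1.31 for *Ms4a4b* and 1.11 to 1.32 for *Ly6c2*. Each of these 6 genes rose over every step in 4 of 4 libraries, except *Ly6e* in 3 of 4, while *Ms4a6c* did so in none and *Ly6c1* in 1.

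**Figure D3:**
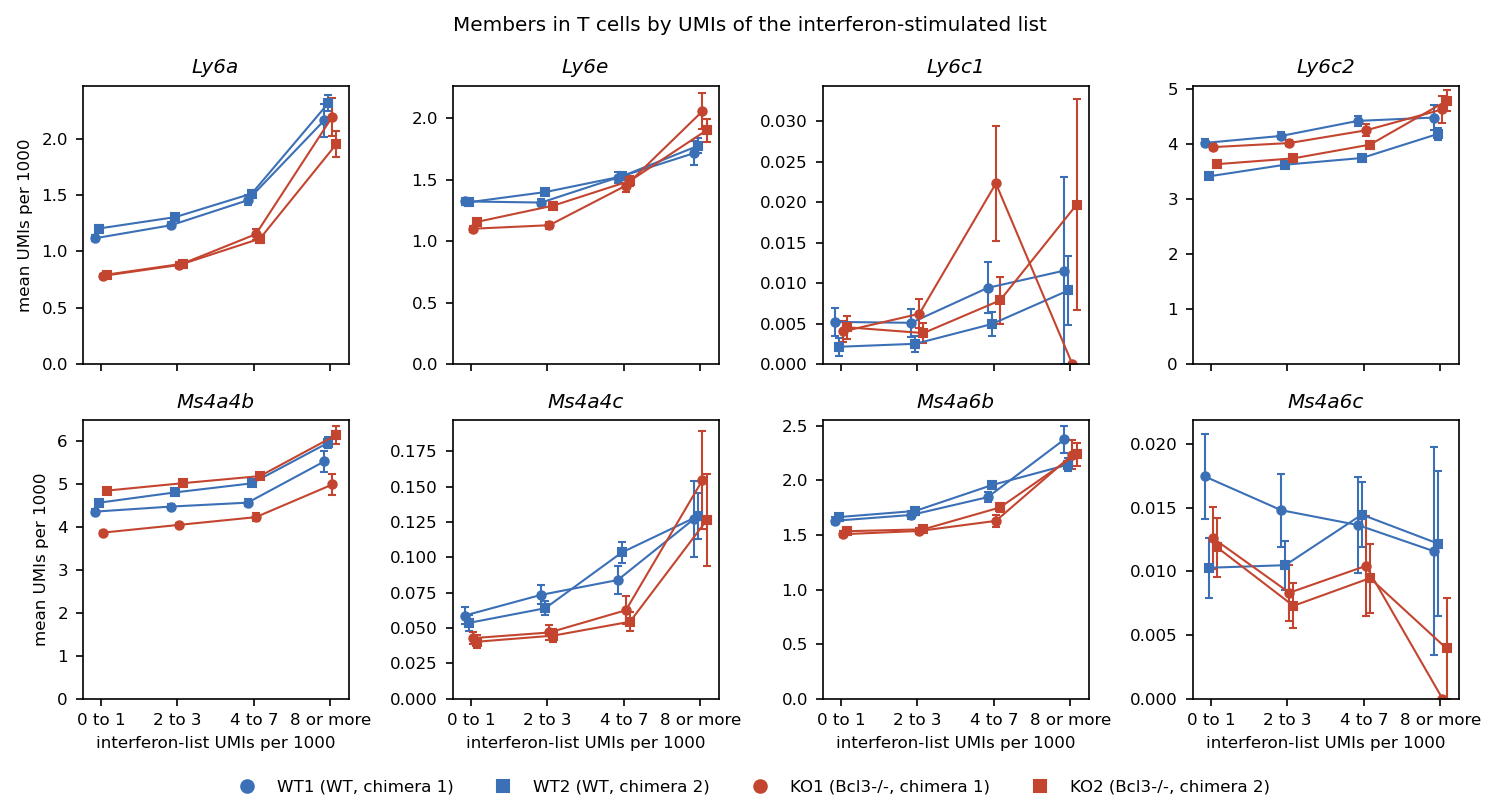
Mean UMIs per 1000 of each member (y axis, linear, from 0) in T cells thinned to 1000 UMIs, by the cell's UMIs of the interferon-stimulated list (x axis). Points are libraries, and bars are standard errors over cells, which cover counting error and spread between cells of 1 library only. Ly6a of Bcl3-/- libraries starts at 0.783 and 0.795 and ends at 2.195 and 1.95, within reach of the WT libraries.

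Of the classes tested, terminal effector-like cells had the largest genotype differences of *Ly6a* and *Ly6e*. *Ly6a* had 970 (WT1), 1223 (WT2), 537 (KO1) and 558 (KO2) CPM there, and was called lower (log2 fold change -1.01, SE 0.15, adjusted p = 0.00892). *Ly6e*, with a log2 fold change of -0.13 over all cells, had 979, 1125, 598 and 565 CPM in the same order (-0.86, SE 0.14, adjusted p = 0.0163). *Ms4a4c* had 63.1, 50.8, 30.2 and 31.8 CPM (-0.89, SE 0.17, adjusted p = 0.0375), beside -0.85 (SE 0.18) in interferon-stimulated cells, a gap smaller than either SE, and in chimera 2 its difference was the smaller (-0.66 against -1.11). In all 3 both *Bcl3-/-* libraries were well below both WT libraries, and leaving out 1 library, which leaves 1 of its genotype with a spread taken from the other, gave adjusted p up to 0.0488 (*Ly6e* without KO2). These 3 members were called lower and none higher, where 0.405% of 8388 genes tested were called lower. With the block *Ms4a6b* was the fourth (1717, 1722, 1279 and 1314 CPM, -0.42, adjusted p = 0.0152 against 0.285 without the block), where 1.54% of all genes were called lower.

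Whether the genotype difference was larger there than in no-list cells was tested as an interaction of class and genotype with library as a term, an analysis chosen after seeing the data. Terminal effector-like minus no-list cells, it was -0.50 for *Ly6a* (SE 0.07, adjusted p = 6.87e-05), -0.77 for *Ly6e* (SE 0.07, adjusted p = 2.00e-07) and -0.29 for *Ms4a6b* (SE 0.06, adjusted p = 0.0233), 3 of 8 members, where 0.735% of 10069 genes were called so. Without 1 library the difference ranged from -0.57 to -0.44 for *Ly6a*, -0.86 to -0.69 for *Ly6e* and -0.33 to -0.25 for *Ms4a6b*. The call of *Ms4a6b* was lost without KO1 or KO2. For *Ly6c2*, not called by the interaction test (-0.21, adjusted p = 0.21), the difference ranged from -0.27 to -0.15. These fits leave 1 library of a genotype, so no p is given for them. For *Ms4a4c* the difference of -0.37 was not called (adjusted p = 0.441). Within each library, terminal effector-like minus no-list cells gave for *Ly6e* -0.45 (WT1), -0.36 (WT2), -1.09 (KO1) and -1.28 (KO2) on the log2 scale. The class was lower in each library, and lower by more in both *Bcl3-/-* libraries. The 6 terminal effector list genes, which named the class, were themselves all higher in *Bcl3-/-* T cell clusters with the block (2 without it). *Zeb2*, a transcription factor of terminal effectors, was among them, with 149 (WT1), 142 (WT2), 228 (KO1) and 278 (KO2) CPM in terminal effector-like cells. Its part in the member differences was not tested.

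In the other T cell classes, the edgeR fits of all 4 libraries and all cells of a class called members with the block only. In no-list cells *Ly6a* had 1226, 1402, 931 and 944 CPM in WT1, WT2, KO1 and KO2 (log2 fold change -0.50, adjusted p = 0.194, with the block 0.00276) and *Ms4a4c* 68.7, 70.8, 50.1 and 48.0 CPM (-0.53, adjusted p = 0.143, with the block 0.00584), where 2.03% of all genes were called lower with the block. In cycling cells *Ly6a* had 1272, 1430, 915 and 1035 CPM (-0.50, adjusted p = 0.262, with the block 0.000581), where 1.22% of all genes were so called. In interferon-stimulated cells, with the block, *Ly6a* (2061, 2488, 1804 and 1817 CPM, -0.35, adjusted p = 0.685, with the block 0.00637) and *Ms4a4c* (138, 171, 92.8 and 78.6 CPM, -0.85, adjusted p = 0.104, with the block 4.07e-05) were called lower, where 1.21% of all genes were. In each of these the *Bcl3-/-* libraries were lower without overlap. Without 1 library and without the block, the adjusted p of *Ms4a4c* in interferon-stimulated cells ranged from 5.63e-05 (without WT1) to 0.793 (without KO2).

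The MPEC-gene class is no settled cell type. Its *Bcl3-/-* clusters had more genes of the naive T cell list than of the MPEC list among their 10 leading genes (5 against 3 in cluster 10 of KO1, 5 against 4 in cluster 7 of KO2), and its WT clusters as many of both (4 in cluster 7 of WT1, 5 in cluster 8 of WT2). By the naming rule, the *Bcl3-/-* clusters took the name of the naive T cell list and the WT clusters that of the MPEC list. The values below compare these 4 clusters, and whether they hold the same cells in both genotypes was not tested. *Ly6c1* had 16 UMIs in 306 cells of WT1, 3 in 417 of WT2, 16 in 121 of KO1 and 21 in 197 of KO2, or 14.2, 3.32, 33.1 and 33.5 CPM. The genotypes did not overlap (log2 fold change 1.83, SE 0.46, adjusted p = 0.118; with the block 1.93, adjusted p = 0.00101, where 1.25% of 6384 genes were called higher). Without 1 library the fold change ranged from 1.19 (without WT2) to 3.30 (without WT1), with adjusted p from 0.339 to 0.596 without WT2, KO1 or KO2. Without WT1 the WT level rests on the 3 UMIs of WT2 and the gene passed the filter on low counts through the *Bcl3-/-* libraries, so no p is given. The KO1 cluster had *Cd4* among its 10 leading genes, and 17 (WT1), 18 (WT2), 16 (KO1) and 8 (KO2) of the MPEC-gene cells held a *Cd4* UMI. Without these cells, a choice made after seeing the data, 9, 3, 13 and 21 UMIs of *Ly6c1* were left, or 8.50, 3.47, 31.1 and 35.1 CPM, and here too the gene passed that filter through the *Bcl3-/-* libraries alone, so no p is given. The counts are small, and some 3′ words of *Ly6c1* also occur in *Ly6c2*. *Ly6c2* had 2206, 1961, 1949 and 2062 CPM in these cells, without a difference past the threshold (-0.05, adjusted p = 0.976). The genotype difference of *Ms4a4b* was lower in these MPEC-gene clusters than in no-list cells by the interaction test (-0.24, SE 0.05, adjusted p = 0.00616). This was 1 member, where 0.0687% of 10187 genes were called so. *Ms4a4b* had 3557 (WT1), 3993 (WT2), 2513 (KO1) and 3733 (KO2) CPM in MPEC-gene cells. In no-list cells it had 4492, 4881, 4074 and 5041 CPM in the same order. KO1, with 121 MPEC-gene cells, lay furthest below its no-list level, and the test was not repeated without 1 library.

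**Figure D4:**
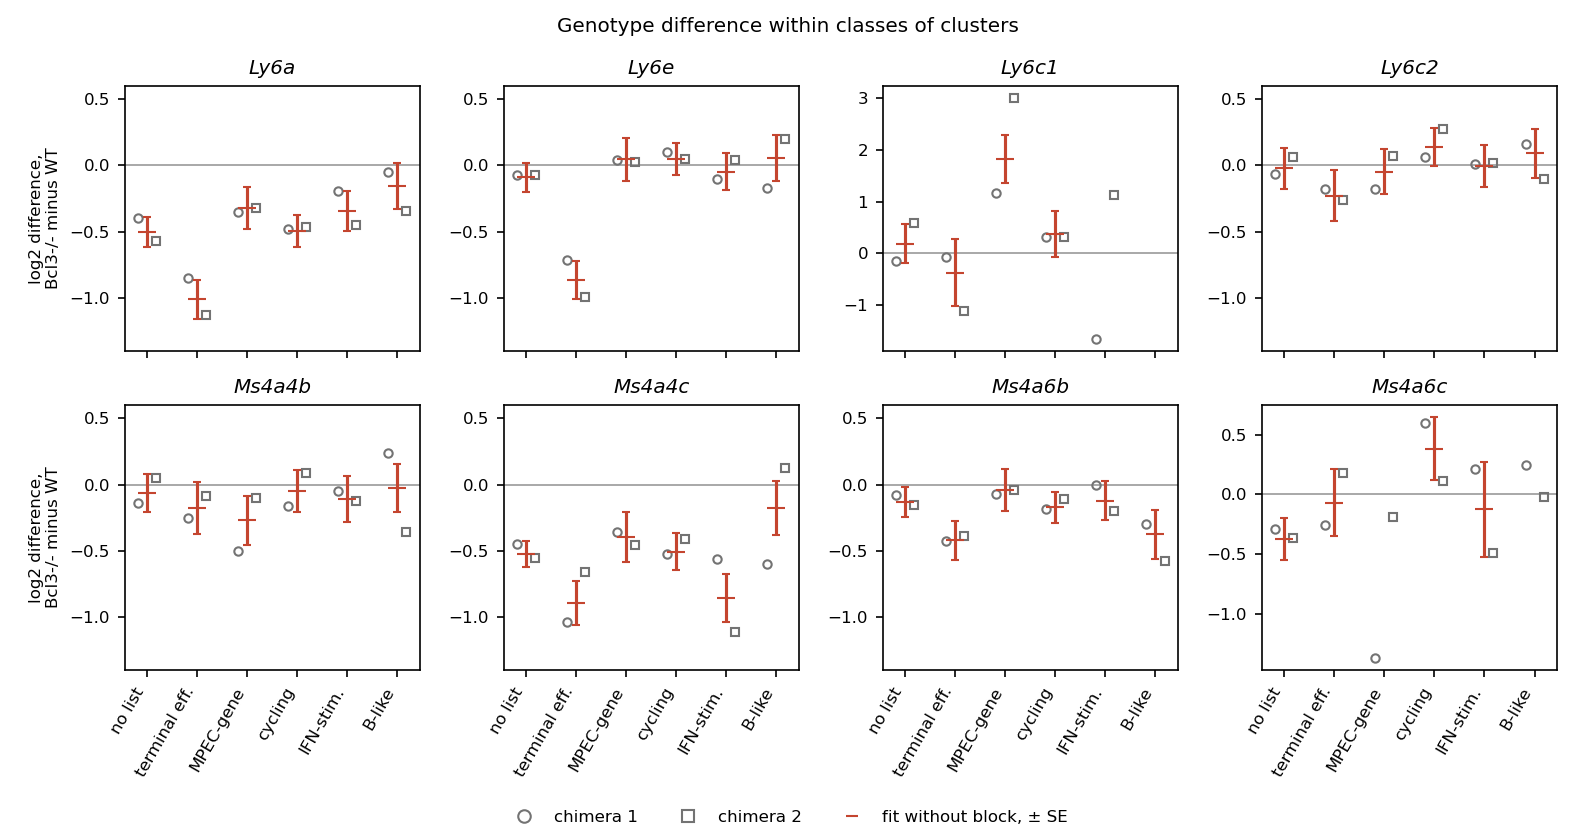
Log2 difference of each member between Bcl3-/- and WT (y axis) in 5 T cell classes and B-like cells (x axis). Open symbols are the differences within chimera 1 (circles) and chimera 2 (squares), left out where a library had no UMI, and red marks are the fit without the block ± SE, absent where the gene was too low to be tested. Ly6a and Ly6e are lowest in terminal effector-like cells, at -1.01 and -0.86.

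In B-like and myeloid cells, RNA of other cells limits what can be read, whether set free or from doublets, for which no caller was run. In B-like cells, which should lack them, the T cell genes *Cd8b1*, *Cd8a* and *Cd3e* stood at 25.7% ± 3.90, 19.6% ± 2.48 and 20.3% ± 3.60 of their level in no-list T cells (SD, n = 4). *Ly6c2* at 25.2% ± 2.54, *Ms4a6b* at 21.3% ± 3.24 and *Ms4a4b* at 14.3% ± 2.24 of their no-list level did not stand apart from these: *Ms4a4b* lay below all 3, and *Ms4a6b* and *Ly6c2* lay above *Cd8a* and *Cd3e* and below *Cd8b1*. Their levels in B-like cells are not read as expression. *Ly6a* (127% ± 14.8), *Ly6e* (173% ± 13.9) and *Ms4a4c* (476% ± 126) stood above all 3 T cell genes. Barcodes with at most 50 UMIs, taken as empty droplets, held all members but *Ly6c1* at 72.4% to 155% of the CPM of the library's cells, so that free RNA carried them in about the proportion of the cells.

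In B-like cells *Ly6e* had 2417 (WT1), 2243 (WT2), 2152 (KO1) and 2570 (KO2) CPM, above every other class in each library and without a genotype difference past the threshold (log2 fold change 0.05, SE 0.17). *Ms4a4c* had 298, 292, 197 and 318 CPM there (-0.18, SE 0.20), with overlap of the genotypes, and *Ly6a* 1368, 1637, 1323 and 1286 CPM (-0.16, SE 0.17). None of the 6 members tested in B-like cells was called, in 105 to 134 cells per library, where 1.31% of 4184 genes were called in either direction (378 had an unadjusted p below 0.05), and none with the block. *Ly6c1* had no UMI in B-like cells of any library, which allows a share of cells with a UMI of up to 2.24% (KO1) to 2.86% (WT1) among cells thinned to 1000 UMIs. The difference of *Ly6a* and *Ms4a4c* between B-like and T cells was not tested.

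*Ms4a6c* was a gene of the monocyte/macrophage-like cells. It had 665 (WT1), 683 (WT2), 633 (KO1) and 622 (KO2) CPM there, against 13.1, 11.7, 12.01 and 10.2 in the T cell clusters, and was among the 10 leading genes of these clusters in each library. Between 69.6% and 77.4% of its UMIs lay outside the T cell clusters. In no-list T cells *Ms4a6c* stood at 1.62% ± 0.18 of its monocyte/macrophage-like level, and *Lyz2*, a lysozyme of myeloid cells that T cells should lack, at 0.901% ± 0.17. After thinning to 1000 UMIs, 45.1% ± 3.81 of the monocyte/macrophage-like cells had a UMI of *Ms4a6c*, and 1.14% ± 0.26 of T cells. *Ms4a4c* had 272 ± 62.7 CPM in these cells and 276 ± 54.2 in B-like cells, with overlapping ranges. *Ly6c2*, the antigen of inflammatory monocytes, stood at 2215 ± 217 CPM, 55.0% ± 3.98 of its no-list level, above *Cd8b1* at 25.4% ± 6.98, and *Ms4a4b* at 14.6% ± 4.87 did not. *Ly6e* at 141% ± 19.0 and *Ly6a* at 102% ± 8.56 of their no-list levels also stood above *Cd8b1*. The range of *Ms4a6b* (35.5% ± 4.61, from 28.8% to 39.2%) overlapped that of *Cd8b1* (16.7% to 33.2%). Of the UMIs of *Ms4a4c*, 20.4% to 26.5% lay outside the T cell clusters, of those of *Ms4a4b* 1.0499% to 1.82%.

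Plasma-like cells, 40 to 78 per library, had the highest *Ly6c2*. It was 15953 CPM (WT1), 10794 (WT2), 8149 (KO1) and 11906 (KO2), above every other class in each library, with *Cd8b1* at 37.4% ± 6.71 of its no-list level. *Ly6a* was 2570 (WT1), 3367 (WT2), 1737 (KO1) and 1854 (KO2) CPM, lower in the *Bcl3-/-* libraries without overlap. With under 50 cells in a library this class was not tested. Neutrophil-like cells, 32 to 112 per library, had the lowest *Ly6a*, 379 ± 91.9 CPM, which was 34.1% ± 8.80 of its no-list level beside *Cd8a* at 27.2% ± 9.90 and *Cd8b1* at 27.0% ± 6.66 and is not read as expression, with *Ly6e* at 1349 ± 94.8 CPM.

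As a description, the genes whose levels over the 5 T cell classes and 4 libraries (20 points, which share libraries, centred within each library) were most like each member were found among 4991 genes with at least 20 CPM. For *Ly6a* these were *Psmb8*, an immunoproteasome subunit (r = 0.97), *Mitd1* and *Tapbp*, which loads peptide on MHC class I. For *Ly6e* they were *Psme2*, a proteasome activator (r = 0.95), *Cotl1* and *Sit1*, and for *Ms4a4c* *Max*, *Iigp1*, an interferon-inducible GTPase, and *Socs1*, an inhibitor of cytokine signalling. Those of *Ly6c2* included *H2-D1*, an MHC class I gene (r = 0.97), and *Gimap7*, those of *Ms4a4b* *Ptk2b*, *Epsti1* and *Sp100*, and those of *Ms4a6b* *Stk17b*, *Cd3g*, a chain of the T cell receptor complex, and *Ctsw*. Those of *Ly6c1* were *Tpt1*, *Cd7* and *Rps18-ps3*. *Ms4a6c*, with few UMIs in T cells, was most like *Setd5* (r = 0.70), *Lrwd1* and *Cul1*. Among the members, *Ms4a4b* was most like *Ms4a6b* (r = 0.90) and *Ly6a* like *Ly6e* (r = 0.81), while *Ly6c1* and *Ly6c2* had r = -0.61.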

How the data were processed

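The deposited matrices hold counts of unique molecular identifiers (UMIs) per gene and barcode, made by the authors from 10x Genomics 3′ v2 libraries; the submitters' processing notes name Cell Ranger 2.2.0, bcl2fastq 2.17 and mm10. All 4 libraries were used. Cells were kept from 500 genes upward and up to 10% mitochondrial UMIs, with a median of 2019 to 3620.5 UMIs per cell. Intervals and limits cover counting error only. The members and the gene lists were chosen with earlier results of these data known.

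Cells of each library were clustered in Seurat 5.3.0 (2000 variable genes without members and relatives, 15 principal components, 20 neighbours, resolution 0.8). A cluster took a list's name with at least 3 list genes at 2-fold and in 10% of its cells, 1 of them among its 10 leading genes. This rule was set after the clusters were seen. Clusters named from the naive T cell list (cluster 10 of KO1, cluster 7 of KO2) were put in the MPEC-gene class. The MPEC list named the clusters of this class in WT1 (cluster 7) and WT2 (cluster 8). Clusters below 1% of a library were set apart as small, and neutrophil-like and plasma-like cells are partly such clusters. The 2 small clusters with monocyte and macrophage list genes (24 cells of KO1, 46 of KO2) were left out of every class. They were led by *Hmox1* and *Spic* or *C1qa* and not by *Ms4a6c*. No doublet caller was run. Levels (CPM) are UMIs per 1000000 UMIs of the summed cells. Genotypes were compared on summed counts with edgeR 4.0.16 (quasi-likelihood, R 4.3.3), filtered on low counts and with Benjamini-Hochberg adjustment over all genes tested, at an adjusted p of 0.05 (two-sided); a value "with the block" has the chimera as a term. Both genotypes of a chimera came from 1 animal, which pairs the libraries, and deviations of paired libraries from their genotype means correlated over 6863 genes (r = 0.29). With chimera or library as a term, little is left to measure the spread of a single gene. Such p-values lean on a spread shared over genes. Over all cells the SEs with the block were alike (*Ly6a* 0.074, *Ly6e* 0.072, *Ms4a4c* 0.073, *Ms4a6b* 0.074). DESeq2 1.42.0, other filters, cells and cluster settings, and leaving out each library were alternatives. For the cells grouped by interferon list UMIs, and for shares of cells with a UMI, cells were thinned to 1000 UMIs, which left out 25 (WT1), 223 (WT2), 15 (KO1) and 19 (KO2) shallower cells. Every member is described, and the other genes named are list genes that were called with the block or most abundant, and the 3 genes most like each member, of which 1 is not reported here. Scripts were tested on simulated data. Positions are from GENCODE vM21 (GRCm38) and promoters from RefSeq (GRCm38.p6).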

Additional observations from a re-analysis of the deposited data

Results flagged for a closer look

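The genotype difference (*Bcl3-/-* minus WT, log2) differed between T cell classes by the interaction test with Benjamini-Hochberg adjustment in edgeR. It was lower in terminal effector-like than in no-list cells for *Ly6a* (-0.50, adjusted p = 6.87e-05), *Ly6e* (-0.77, adjusted p = 2.00e-07) and *Ms4a6b* (-0.29, adjusted p = 0.0233). For *Ms4a6b* the call was lost without KO1 or KO2. These p-values lean on a spread shared over genes. By the same test the genotype difference of *Ms4a4b* was lower in the MPEC-gene clusters than in no-list cells (-0.24, adjusted p = 0.00616). The MPEC-gene clusters of the *Bcl3-/-* libraries were led more by naive T cell genes. KO1 lay furthest below its no-list level of *Ms4a4b* (2513 against 4074 CPM), and this test was not repeated without 1 library. In *Ly6e* and in 3 further genes both chimeras moved one way in one class and the opposite way in another, and these differences were not tested. For *Ly6e* they were 0.93 apart (mean of chimeras 0.07 in cycling and -0.85 in terminal effector-like cells), for *Ly6c1* 2.67 (2.09 in MPEC-gene and -0.59 in terminal effector-like cells), for *Ly6c2* 0.39 (0.17 in cycling and -0.22 in terminal effector-like cells) and for *Ms4a6c* 1.14 (0.36 in cycling and -0.78 in MPEC-gene cells). The values of *Ly6c1* and *Ms4a6c* rest on few UMIs. In terminal effector-like cells *Ly6c1* differed by only -0.07 in chimera 1, and its fold change turned positive without WT1 or without KO2 (up to 0.26).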

How the results depend on the processing

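Over all cells, 33 genes were called higher and 9 lower in *Bcl3-/-* libraries; with the chimera block these were 556 and 560, with DESeq2 126 and 69, with cells thinned to 1000 UMIs 20 and 4, and without 1 library 18 to 163 and 16 to 65. In the T cell clusters 24 were called higher and 6 lower, 740 and 756 with the block, 105 and 60 with DESeq2, 12 to 119 and 15 to 65 without 1 library, 9 higher with no filter on low counts, 9 higher and 3 lower at up to 5% mitochondrial UMIs and 10 lower with at least 800 genes per cell. The cause was not tested. Members called lower numbered 1 over all cells, 2 with the block or DESeq2, 0 with no filter, with thinning or without cells above 3 times the median UMIs, and 0 to 1 without 1 library. In the T cell clusters it was 0, 2 with the block or DESeq2, 1 with at least 800 genes and 0 to 1 without 1 library. With the block it was 2 in no-list, 1 in cycling and 2 in interferon-stimulated cells, and 1 member, *Ly6c1*, was called higher in MPEC-gene cells. Without cells holding a *Cd4* UMI, or without WT1, *Ly6c1* passed the filter on low counts through the *Bcl3-/-* libraries alone. No call is read there, though both fits are among the 19 member fold changes counted below as passing the threshold only under an alternative. In terminal effector-like cells the members called lower went from 3 to 4 with the block (*Ms4a6b*, adjusted p = 0.0152). The block changed no other call of a member.

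*Ly6a* was lower under every alternative run over all cells, from -0.62 to -0.51 on the log2 scale. Several differences that were not called changed sign. In the T cell clusters *Ly6c2* went from 0.026 to -0.0053 with thinning. Leaving out 1 library, *Ly6c1* ranged from -0.22 to 0.85 over all cells, -0.16 to 0.95 in T cell clusters, -0.31 to 0.85 in no-list and -2.24 to 0.26 in terminal effector-like cells. *Ly6c2* ranged from -0.15 to 0.10 over all cells, -0.083 to 0.13 in T cell clusters, -0.16 to 0.12 in no-list, -0.17 to 0.080 in MPEC-gene, -0.074 to 0.066 in interferon-stimulated and -0.20 to 0.32 in B-like cells. *Ms4a4b* ranged from -0.18 to 0.048 over all cells, -0.18 to 0.071 in T cell clusters, -0.17 to 0.037 in no-list, -0.23 to 0.11 in cycling, -0.28 to 0.066 in interferon-stimulated and -0.24 to 0.19 in B-like cells. *Ly6e* ranged from -0.0087 to 0.094 in MPEC-gene and -0.056 to 0.15 in B-like cells, *Ms4a4c* from -0.50 to 0.10 in B-like cells, and *Ms4a6c* from -0.61 to 0.27 in interferon-stimulated and -0.22 to 0.089 in terminal effector-like cells. In all, 418 member fold changes under an alternative kept their direction and side of the threshold, 33 changed sign, 19 passed the threshold only there and 7 no longer did.

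With 2 libraries per genotype the spread is poorly known, and free RNA and small classes limit low genes.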
